A study of Mus musculus with 9 samples.

Results

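Lipolysis, the breakdown of stored triglyceride, was followed at the level of its genes in differentiating 3T3-L1 cells. The 8 genes described are the beta-adrenergic receptor genes Adrb1 and Adrb3, the lipase genes Pnpla2, Pnpla3, Lipe and Mgll, the lipase co-activator gene Abhd5 and the glycerol channel gene Aqp7. They were chosen by gene symbol, as genes of known function in this pathway, among 19094 genes listed in at least 1 sample. Of the 8 genes, 7 had enough counts to be tested among the 13154 genes tested in all, and Adrb1 did not.

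The samples were 3T3-L1 cells, a clonal line of mouse fibroblasts that stores lipid after hormonal induction, and 3 samples were sequenced at each of 3 stages. Preadipocytes were collected at day 0, ahead of a 2-day induction with insulin, IBMX and dexamethasone. After induction the medium held insulin, and cells were collected from it at day 4 and at day 8. Cells of a stage were pooled for extraction and samples were prepared from mixed RNA, and no source used here says that replicates came from separate cultures, so p-values measure the spread between these samples. No genotype, allele or transgene distinguished the groups, which shared the line. Early phase means day 4 against day 0, late phase day 8 against day 4, and whole process day 8 against day 0. The phases share the day 4 libraries, and every comparison shares libraries with the others. Total expected counts were 18216114 to 20452144 per library, with a median of 20182731.

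The labels name the cells adipocytes at every stage, while the extraction text speaks of dorsal root ganglia by their abbreviation, DRG. Adipocyte markers were therefore checked in each library, and so were markers of sensory neurons and other cells. The summed FPKM (fragments scaled to transcript length and to the depth of the library) of 8 adipocyte markers was 126 to 132 at day 0, and most of it was lipoprotein lipase (Lpl), since 6 of the 8 markers were under 1 FPKM and leptin (Lep) was at 0. The sum was 5456, 6425 and 7843 FPKM in the day 4 libraries and 8272, 9056 and 9002 FPKM in the day 8 libraries, with Fabp4 the most abundant. Only 2 of the 8 markers passed the expression filter at day 0, and both were upregulated in the early phase, beside 9.77% of all tested genes. The other 6 entered the test through the later days and had to be higher there. At day 0, adipocyte markers other than Lpl and Fabp4 were thus nearly absent, whatever the label. Of 8 preadipocyte and fibroblast markers, Dlk1, Ly6a and Fn1 were downregulated early and 0 upregulated, beside 7.98% and 9.77% of all tested genes. At an adjusted p alone, 4 more were lower early and 1, Pdgfra, was higher (log2 fold change 0.84). Dlk1 was upregulated late (1.24). The sum over the 8 markers was 3878 to 4130.5 FPKM in day 0 libraries, 1900 to 2094 FPKM in day 4 libraries and 3372.5 to 3421 FPKM in day 8 libraries, with Col1a1 the most abundant. Sensory neuron markers summed to 0.57 to 1.63 FPKM, and Scn10a had at most 0.01 FPKM in any library. Snap25 was the most abundant of these, at 1.04 to 1.17 FPKM from day 4 on. Markers of macrophages summed to 1.95 to 4.04 FPKM, with Adgre1 at no more than 0.03 and Cd68 at 0.96 to 1.81. Lyz2 had means of 1.80, 0.40 and 0.93 FPKM at day 0, day 4 and day 8. It was downregulated early and upregulated late (log2 fold changes -2.10 and 1.25). Markers of endothelium summed to 0.24 to 1.08 FPKM. Of these, Vwf was downregulated early (-2.955) and Pecam1 upregulated late (1.01). Among 6 brown fat markers, Ucp1 and Prdm16 had at most 0.06 FPKM, while Cox7a1 had 10.8 to 13.9 FPKM at day 8. Among muscle markers, Myog and Ckm had at most 0.03 FPKM. Des was the most abundant at 3.56 to 8.70 FPKM, with means of 3.74, 4.51 and 8.23 FPKM at day 0, day 4 and day 8. Both tested muscle markers, Des and Acta1, were upregulated over the whole process (log2 fold changes 1.25 and 1.05), beside 10.3% of all tested genes. In bulk RNA, fewer cells of a type and less RNA per cell cannot be told apart. What part the changing marker levels had in the results on the 8 genes was not tested.

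Lipolysis in fat cells is switched on by catecholamines, which bind beta-adrenergic receptors and raise cyclic AMP, so that protein kinase A phosphorylates perilipin on the lipid droplet and hormone-sensitive lipase. Adipose triglyceride lipase (Pnpla2) with its co-activator CGI-58 (Abhd5) then cuts triglyceride to diglyceride, hormone-sensitive lipase (Lipe) cuts diglyceride to monoglyceride, and monoglyceride lipase (Mgll) releases glycerol. Aqp7 lets glycerol leave the cell, and Adrb3 is the receptor subtype typical of rodent fat.

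The lipase and co-activator genes Pnpla2, Lipe, Mgll and Abhd5 were upregulated in the early phase, by log2 fold changes from 1.90 to 4.82. Adrb3, Pnpla3 and Aqp7 were at or near 0 in preadipocytes and had enough counts for a test on the later days only, so that they could only be higher there. Thereafter the genes parted. Mgll, Adrb3, Pnpla3 and Aqp7 were upregulated in the late phase, Lipe rose by less than 2-fold, and Pnpla2 and Abhd5 were slightly lower at day 8 than at day 4. The plot of FPKM by library shows these shapes for each gene.

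**Figure D1:**
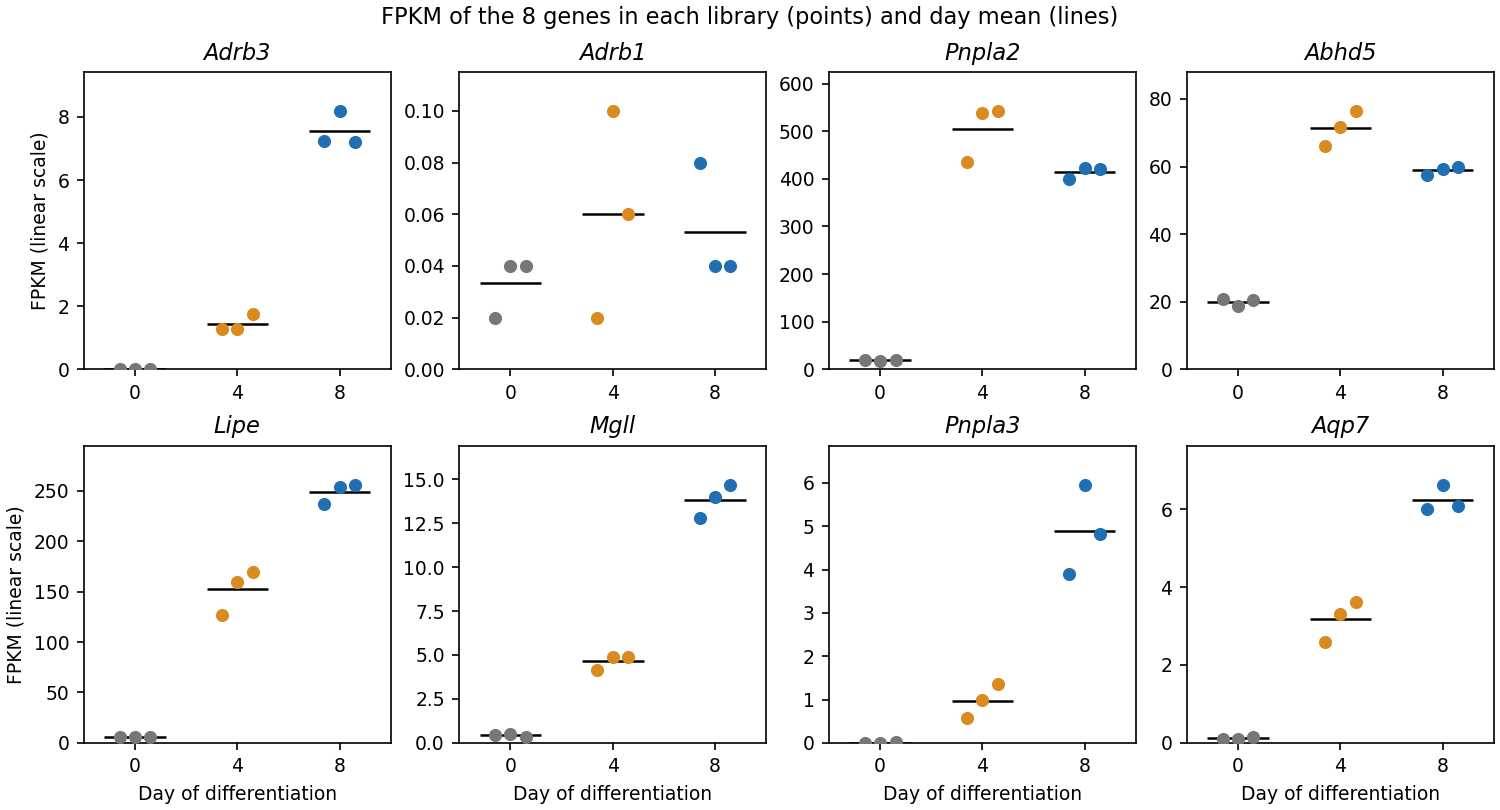
FPKM (linear scale, a separate axis for each gene) of the 8 genes in the 3 libraries of each day of differentiation, with a point for each library and a line at the mean of the day. Pnpla2 and Abhd5 had their highest libraries at day 4, the points of Lipe, Mgll, Adrb3, Pnpla3 and Aqp7 were highest at day 8, and those of Adrb1 overlapped at 0.02 to 0.1 FPKM on all days.

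Adrb3 (NCBI gene ID 11556), which encodes the beta-3 receptor, was listed at 0 in every day 0 library. Its FPKM was 1.29, 1.29 and 1.74 in the day 4 libraries and 7.24, 8.19 and 7.22 in the day 8 libraries. The 3 stages did not overlap, and every later library was above every earlier one. With the day 0 libraries set to the floor of 3 counts each, the level was at least 27.7-fold higher at day 4 and at least 149.8-fold higher at day 8. The late log2 fold change was 2.44 ± 0.13 (standard error, as after every log2 fold change that follows, edgeR adjusted p = 1.7e-09), a 5.41-fold rise. A gene listed at 0 at day 0 could enter the test only by being higher later, so no early test is given. The values rest on 73 to 96 expected counts per day 4 library and 403 to 464 per day 8 library. Part of its exons, 24.9% of the bases, overlap exons of the antisense gene Gm45470 in GENCODE vM21, and no source used here says whether counting used strand, so reads of both cannot be told apart there.

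Adrb1 (11554), the beta-1 receptor gene, stayed at the edge of detection. Its expected counts were 1, 2 and 2 at day 0, 1, 5 and 3 at day 4, and 4, 2 and 2 at day 8. The stages overlapped, and summed over libraries the counts were 5 (exact Poisson 95% interval 1.62 to 11.7), 9 (4.12 to 17.1) and 8 (3.45 to 15.8). The intervals cover counting error only, as do the floors. Any change of Adrb1 was not detectable at this depth, at which 3 counts are 0.147 to 0.165 CPM (counts scaled to the library total).

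The lipase, co-activator and channel genes were higher in every day 4 library than in any day 0 library, and the stretches before their annotated starts are shown for the triglyceride and diglyceride lipases, for Pnpla3 and for Aqp7. Each line gives the 250 bases before a start in RefSeq's annotation of GRCm38.p6, 5′ to 3′ on the strand of the gene. The windows are Pnpla2 at chr7:141454938-141455187 (plus strand), Lipe at chr7:25395988-25396237 (minus strand), Pnpla3 at chr15:84167566-84167815 (plus strand) and Aqp7 at chr4:41048137-41048386 (minus strand). Capitals mark matches to the motifs searched.
Pnpla2: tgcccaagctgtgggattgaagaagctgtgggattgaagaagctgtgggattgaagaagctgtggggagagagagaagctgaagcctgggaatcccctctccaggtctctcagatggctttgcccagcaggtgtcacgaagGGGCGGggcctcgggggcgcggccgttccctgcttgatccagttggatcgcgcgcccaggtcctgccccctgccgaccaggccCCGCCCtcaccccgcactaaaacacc
Lipe: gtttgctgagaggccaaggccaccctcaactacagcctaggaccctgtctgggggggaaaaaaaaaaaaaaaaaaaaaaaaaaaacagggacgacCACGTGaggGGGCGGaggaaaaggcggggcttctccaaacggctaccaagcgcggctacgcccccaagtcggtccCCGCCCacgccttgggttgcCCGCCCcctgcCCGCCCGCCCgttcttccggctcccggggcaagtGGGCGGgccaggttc
Pnpla3: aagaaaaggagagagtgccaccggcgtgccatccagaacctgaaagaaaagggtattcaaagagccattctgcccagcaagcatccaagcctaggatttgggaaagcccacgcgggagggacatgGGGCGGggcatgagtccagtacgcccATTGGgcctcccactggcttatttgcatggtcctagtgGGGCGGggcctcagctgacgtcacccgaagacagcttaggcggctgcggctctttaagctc
Aqp7: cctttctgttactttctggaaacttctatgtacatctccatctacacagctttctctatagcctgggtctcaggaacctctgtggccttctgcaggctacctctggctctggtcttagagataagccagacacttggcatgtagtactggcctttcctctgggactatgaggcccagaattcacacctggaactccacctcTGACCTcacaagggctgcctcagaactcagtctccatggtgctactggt
The motifs, chosen with the values known, were the GC box GGGCGG, the TATA box TATAAA, the CCAAT box CCAAT, the nuclear receptor half-site AGGTCA, the C/EBP-type site TTGCNNAA and the E-box CACGTG, on both strands and with the 50 bases after the start included. Of the 8 genes, 7 had an entry, with 10 windows in all. The Lipe window held 6 GC boxes, a pair of them overlapping, and 1 E-box, while a further Lipe window at a downstream start held no match. Pnpla2 had 2 GC boxes, and Pnpla3 had 3, of which 1 lay after the start, and 1 CCAAT box. The Aqp7 window had 1 half-site and no GC box, and a further Aqp7 window at a downstream start, which overlaps it, had the same half-site, 1 other and no GC box. The 2 Mgll windows had 1 GC box each and 1 of them an E-box, and the Abhd5 window had 1 GC box and 1 half-site. The Adrb1 window had 1 GC box and 1 CCAAT box. Neither TATAAA nor TTGCNNAA was found in any of the 10 windows. Among all 32851 windows of the table, 35.7% held a GC box, 13.6% a TATA box, 37.4% a CCAAT box, 16.3% a half-site, 10.8% a C/EBP-type site and 7.15% an E-box. The matches describe letters in these windows and were not tested for binding.

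Pnpla2 (66853), the adipose triglyceride lipase gene, had the highest FPKM of the 8 genes at day 4 and day 8. Day 0 libraries had 18.5, 18.2 and 19.5 FPKM, day 4 libraries 435.9, 538.0 and 542.7 FPKM, and day 8 libraries 400.2, 423.7 and 421.5 FPKM. Both later stages stood far above day 0, and in FPKM the highest day 8 library was below the lowest day 4 library. In CPM with the scaling used for the test they overlapped. Day 8 replicates 2 and 3 had 1160.5 and 1168.2 CPM, and day 4 replicate 1 had 1157.5 CPM. The early log2 fold change was 4.82 ± 0.08 (edgeR adjusted p = 1.1e-16), a 28.3-fold rise. The late one was -0.24 ± 0.07 (edgeR adjusted p = 0.0108), 1.18-fold lower. This late difference no longer passed without day 4 replicate 2 (log2 fold change -0.16, edgeR adjusted p = 0.112) or without day 8 replicate 1 (-0.20, edgeR adjusted p = 0.0569).

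Abhd5 (67469), whose product CGI-58 activates adipose triglyceride lipase, was already expressed in preadipocytes. Its FPKM was 20.8, 18.9 and 20.4 at day 0, 66.1, 71.6 and 76.5 at day 4, and 57.6, 59.4 and 59.8 at day 8. The order of the stages was that of Pnpla2, but the step was smaller, and the stages of Abhd5 overlapped neither in FPKM nor in CPM. The early log2 fold change was 1.90 ± 0.06 (edgeR adjusted p = 1.2e-13) and the late one -0.23 ± 0.06 (edgeR adjusted p = 0.00321). The FPKM ratio of Abhd5 to Pnpla2 was therefore 1.07 ± 0.05 before induction, 0.142 ± 0.009 at day 4 and again 0.142 ± 0.002 by day 8 (SD, n = 3). Abhd5 shares 950 exonic bases, 16% of its own, with the antisense gene A730085K08Rik, which had at most 1 expected count in any library.

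Lipe (16890), the hormone-sensitive lipase gene, kept rising after day 4. Its FPKM was 5.80, 5.68 and 6.01 at day 0, 127.1, 159.9 and 169.9 at day 4, and 237.3, 253.5 and 256.3 at day 8. No stage overlapped another. The early log2 fold change was 4.72 ± 0.10 (edgeR adjusted p = 1.1e-15). The late log2 fold change was 0.75 ± 0.08 (edgeR adjusted p = 8.6e-07), a 1.69-fold rise that stayed under the 2-fold threshold of a call. Over the whole process it was 5.48 ± 0.10 (edgeR adjusted p = 2.8e-16). The files list 2 transcripts of Lipe, and the mean transcript length that RSEM assigned was 2889.7 to 2969.6 bases at day 0 and 2817.2 to 2830.8 bases later. Exons of Lipe overlap the antisense gene 4732471J01Rik over 918 bases, and that gene had 21.4 to 46.7 expected counts per library.

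Mgll (23945), the monoglyceride lipase gene, was low in preadipocytes and rose in both phases. Its FPKM was 0.42, 0.52 and 0.32 at day 0, 4.15, 4.90 and 4.89 at day 4, and 12.8, 13.99 and 14.7 at day 8. The day 0 values rest on 22 to 34 counts per library, and the stages did not overlap. The early log2 fold change was 3.59 ± 0.15 (edgeR adjusted p = 2.9e-12) and the late one 1.62 ± 0.09 (edgeR adjusted p = 5.2e-10). These are 12.0-fold and 3.07-fold rises.

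Pnpla3 (116939), a relative of Pnpla2 that encodes adiponutrin, was at 0 in day 0 replicates 1 and 2 and at 0.02 FPKM in replicate 3. At day 4 the libraries had 0.57, 1.00 and 1.36 FPKM, and at day 8 they had 3.89, 5.96 and 4.82 FPKM. The spread within a day was wide, yet the lowest day 8 library lay above the highest of day 4. Summed counts scaled to library size were 282 times as high at day 4 as at day 0, which held 1 count. The 95% interval of 50.2 to 11190 covers counting error only, not the spread between libraries, and is no test of the early change. The late log2 fold change was 2.37 ± 0.21 (edgeR adjusted p = 1.3e-07), a 5.18-fold rise. It entered the test through the later days and had to be higher there, so no early test is given. Pnpla3 remained a minor transcript beside Pnpla2, whose FPKM was 567 ± 185 times as high at day 4 and 87.1 ± 15.9 times as high at day 8 (SD, n = 3).

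Aqp7 (11832), the glycerol channel gene, had 0.09, 0.09 and 0.16 FPKM at day 0, 2.60, 3.31 and 3.62 at day 4, and 6.01, 6.63 and 6.09 at day 8. The stages were separated, with 4 to 8 counts per library at day 0, below the expression filter. It entered the test through the later days and had to be higher there, so no early test is given. The late log2 fold change of 1.02 ± 0.12 (edgeR adjusted p = 2.9e-06) was just past the 2-fold threshold. It fell under that threshold without day 4 replicate 1 (0.90), without day 8 replicate 2 (0.98) and with library size alone for scaling (0.97).

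Day 4 replicate 1 was the lowest day 4 library for Pnpla2, Abhd5, Lipe, Mgll, Pnpla3 and Aqp7, and Adrb3 tied with replicate 2 there. The same library had the lowest summed adipocyte markers of day 4, 5456 FPKM. Its part in the late changes was not tested beyond leaving it out. Without it, the late log2 fold change was 0.64 for Lipe, -0.33 for Pnpla2 and -0.28 for Abhd5.

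The early and the late step of each gene were compared within the same edgeR model, and both use the day 4 libraries. Of all genes tested, 26.2% had a late step above the early step at an adjusted p under 0.05, and 30.4% had a late step below it. The late minus the early log2 fold change was -5.06 ± 0.12 for Pnpla2 (edgeR adjusted p = 6.8e-15), -3.97 ± 0.14 for Lipe (edgeR adjusted p = 1.0e-12) and -2.13 ± 0.10 for Abhd5 (edgeR adjusted p = 2.0e-11). It was -1.97 ± 0.21 for Mgll (edgeR adjusted p = 8.1e-07). For these 4 genes the late step was thus below the early step on the log2 scale, and Pnpla2 and Abhd5 did not rise after day 4. No such value is given for Adrb3, Pnpla3 and Aqp7, whose day 0 counts were below the filter. The plot of early against late change sets the values of both phases side by side.

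**Figure D2:**
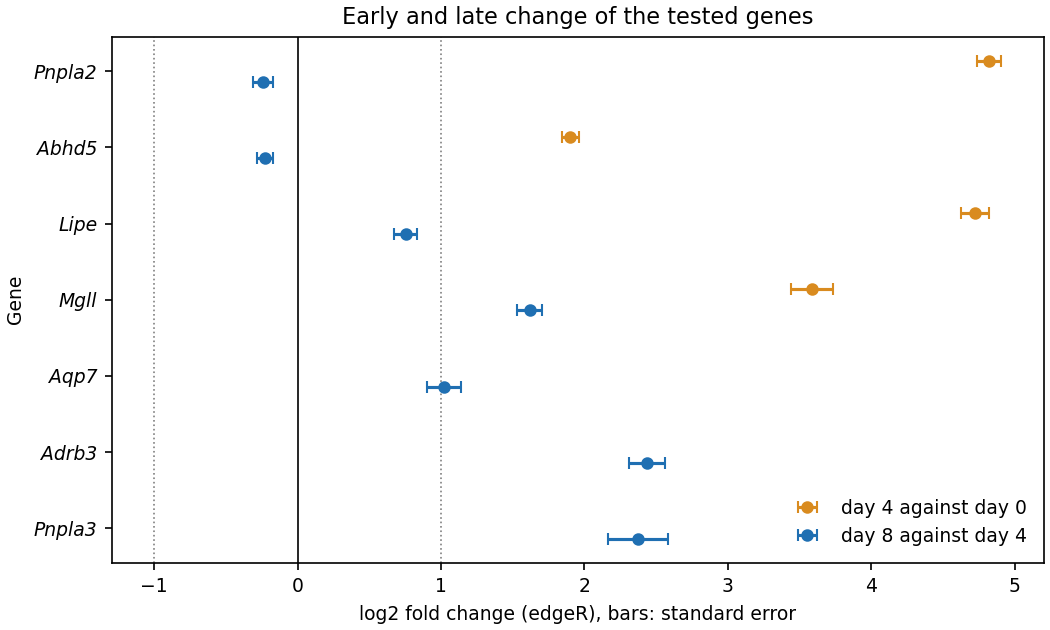
Log2 fold changes from edgeR (x axis) of the 7 tested genes (y axis), with day 4 against day 0 in orange, day 8 against day 4 in blue, bars for the standard error and dotted lines at the 2-fold threshold. Early values of Aqp7, Adrb3 and Pnpla3 are left out because their day 0 counts were below the filter, and the late values of Pnpla2 and Abhd5 lie below 0 while Lipe lies between 0 and 1.

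Counted by direction, the 4 genes that passed the expression filter at day 0 (Pnpla2, Lipe, Mgll and Abhd5) were all upregulated in the early phase, in which 9.77% of all tested genes were upregulated and 7.98% downregulated. The other 3 tested genes, Adrb3, Pnpla3 and Aqp7, were above the filter at day 4 and day 8 only and had to be higher there. In the late phase 4 of the 7 tested genes were upregulated and 0 downregulated, beside 4.24% and 2.81% of all tested genes. At an adjusted p alone, 1 further gene (Lipe) was higher and 2 (Pnpla2 and Abhd5) were lower late, where 22.5% of all genes were higher and 22.7% lower. Over the whole process, the log2 fold changes were 4.58 for Pnpla2, 5.48 for Lipe, 5.21 for Mgll and 1.67 for Abhd5, all upregulated, beside 10.3% of all genes upregulated and 7.7% downregulated. The median log2 fold change over all tested genes was 0.016 early, -0.008 late and -0.018 over the whole process.

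Ranked by FPKM, the 8 genes changed places between days. At day 0, Abhd5 (20.01 ± 1.02 FPKM, SD, n = 3) and Pnpla2 (18.7 ± 0.71 FPKM) overlapped at the top, followed by Lipe, Mgll and Aqp7, then Adrb1 and Pnpla3, which overlapped, and Adrb3, which was at 0 and overlapped Pnpla3 but not Adrb1. At day 4 the order was Pnpla2, Lipe, Abhd5, Mgll, Aqp7, then Adrb3 and Pnpla3, which overlapped, and Adrb1. At day 8 it was Pnpla2, Lipe, Abhd5, Mgll, Adrb3, Aqp7, Pnpla3 and Adrb1, with no overlap between neighbours, so that Adrb3 had passed Aqp7.

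Among the lipases that act in sequence, the balance shifted late. The FPKM of Pnpla2 was 3.21 ± 0.03 times that of Lipe at day 0, 3.33 ± 0.12 times at day 4 and 1.67 ± 0.02 times by day 8 (SD, n = 3). Of the summed FPKM of Pnpla2, Lipe and Mgll, Lipe held 23.3%, 22.9% and 36.7% at the successive stages. The share of Mgll was 1.69%, 0.704% and 2.04% on these days. By library it was 1.24 to 2.14% at day 0 and 1.97 to 2.12% at day 8, which overlapped, and 0.682 to 0.732% at day 4. The day 8 shares of Lipe, 36.5 to 37.0%, lay above all shares of the earlier days, whose highest was 23.7%. The ratios and shares compare transcripts per length and say nothing of protein amounts. With 3 libraries against 3, an exact permutation test cannot give a two-sided p below 0.1, so shares and ratios are described without a test. The plot of shares by library shows the late shift to Lipe.

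**Figure D3:**
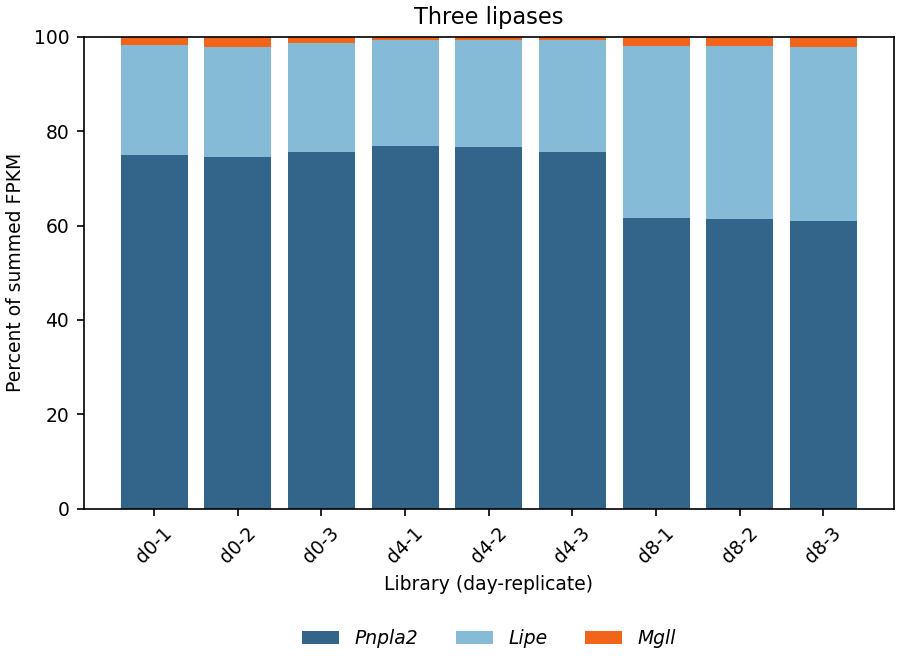
Percent of summed FPKM in each library (d0, d4 and d8 stand for the days, followed by the replicate number), with Pnpla2, Lipe and Mgll stacked to their sum. The Lipe band widens from at most 23.7% on the earlier days to 36.5 to 37.0% at day 8.

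The rest of the pathway was described with gene lists, beginning with receptors, and FPKM values of these genes are means of 3 libraries in the order day 0, day 4, day 8. Adra1d, an alpha-1 receptor gene, was the most abundant adrenergic receptor gene listed, at 18.7 ± 1.23, 17.1 ± 0.65 and 21.4 ± 0.22 FPKM on the 3 days (SD, n = 3). Adra2a, whose product opposes lipolysis through an inhibitory G protein, had 1.92, 2.36 and 2.41 FPKM. Adrb3 was thus below Adra1d at day 8 and above Adra2a.

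Among 13 genes of other receptors that stimulate or restrain lipolysis, 9 were tested, 6 were upregulated and 1 downregulated early, and 3 were upregulated and 2 downregulated late. Of all tested genes, 9.77% and 7.98% were upregulated and downregulated early, and 4.24% and 2.81% late. Only 3 of the 9 passed the filter at day 0, and none of these 3 was upregulated early. Receptors that restrain lipolysis were on both sides. The lactate receptor gene Hcar1 had 0.01, 3.69 and 17.1 FPKM (late log2 fold change 2.26 ± 0.12) and the niacin receptor gene Hcar2 0.02, 3.57 and 20.9 FPKM (late 2.59 ± 0.11) on day 0, day 4 and day 8. By contrast, the neuropeptide Y receptor gene Npy1r was downregulated in each comparison, from 34.1 to 13.4 and 2.60 FPKM (log2 fold changes -1.28 ± 0.11 early and -2.32 ± 0.14 late). Receptors that stimulate lipolysis also parted after day 4. The thyrotropin receptor gene Tshr was at 0 before induction and had 0.32 FPKM by day 4 and 2.78 FPKM by day 8 (late log2 fold change 2.83 ± 0.17). The melanocortin receptor genes were highest at day 4, with Mc5r at 0.163, 13.9 and 4.31 FPKM (late -1.64 ± 0.15) and Mc2r at 0.0833, 8.70 and 4.68 FPKM (late -0.86 ± 0.13, below the threshold of a call). At day 8, Hcar1 and Hcar2 were above Adrb3 in FPKM.

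Of 18 genes of the cyclic AMP relay between receptor and lipase, 13 were tested. Early, 3 were upregulated and 1 downregulated, beside 9.77% and 7.98% of all tested genes, and late 1 was upregulated, beside 4.24%. Of the 3 upregulated early, 2 passed the filter at day 0. Gnas, the stimulatory G protein gene, was the most abundant at 1149.9, 1031 and 1109 FPKM. Prkar2b, a regulatory subunit of protein kinase A, was upregulated early (log2 fold change 1.202 ± 0.07). Adcy5, counted with it, had 0.03 FPKM and 1 to 5 counts per library at day 0. It entered the test through the later days and had to be higher there. Pde3b, the phosphodiesterase through which insulin lowers cyclic AMP, rose from 6.82 to 16.1 FPKM early (1.30 ± 0.07) and to 24.4 FPKM late (0.64 ± 0.07, under the threshold). Adcy7 was downregulated early (-1.92 ± 0.24) and upregulated late (1.37 ± 0.25), at under 1 FPKM throughout.

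Genes of proteins that regulate the lipases on the droplet numbered 13, of which 11 were tested. Early, 6 were upregulated and 0 downregulated, among them 4 of the 8 that passed the filter at day 0, beside 9.77% and 7.98% of all tested genes. Late, 3 were upregulated, of which 2 passed the filter at day 4, beside 4.24% of all tested genes. Over the whole process 9 were upregulated, of which 6 passed it at day 0, beside 10.3%. Plin1, the perilipin that holds CGI-58 until the cell is stimulated, had 0.177, 131 and 243 FPKM, with a late log2 fold change of 0.94 ± 0.09, under the threshold. G0s2, an inhibitor of adipose triglyceride lipase, had 0.35, 89.7 and 242 FPKM, with a late log2 fold change of 1.48 ± 0.09. At day 0, Plin1 had 3 to 9 counts per library and G0s2 had 4 to 7, so both entered the test through the later days. G0s2 was thus upregulated late, while Pnpla2 was 1.18-fold lower. This Pnpla2 difference did not pass without day 4 replicate 2 or without day 8 replicate 1. At day 8 the FPKM of G0s2 was below that of Pnpla2 and above that of Abhd5. Cidec, a droplet fusion gene, had 0.683, 773 and 776 FPKM and its late change did not pass (log2 fold change 0.05 ± 0.09). Hilpda, another inhibitor of this lipase, was upregulated late (1.12 ± 0.11), from 8.35 to 17.6 FPKM. Fabp4, a fatty acid carrier that binds hormone-sensitive lipase, was the most abundant of the list.

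Related lipases and hydrolases, 16 genes of which 14 were tested, served as a comparison for the enzymes. Early, 2 were upregulated and 1 downregulated, near the 9.77% and 7.98% of all tested genes. Late, 3 were upregulated and 0 downregulated, beside 4.24% and 2.81%, and 2 of these 3 passed the filter at day 4. The carboxylesterase genes Ces1d and Ces1f were upregulated in both phases, to 13.4 and 39.7 FPKM at day 8, and Ces1g was downregulated early (-4.14 ± 0.33) and upregulated late (2.29 ± 0.40). The relatives Pnpla6, Pnpla7, Abhd4 and Abhd12 were called in no comparison, while Pnpla8 was upregulated over the whole process (1.30 ± 0.07).

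Downstream of lipolysis, 8 of 9 genes of glycerol and fatty acid handling were tested. Early, 3 were upregulated and 1 downregulated, beside 9.77% and 7.98% of all tested genes. Late, none passed the call, and 3 were higher and 2 lower at an adjusted p alone by edgeR, beside 22.5% and 22.7% of all tested genes. Gpd1, which makes the glycerol phosphate used to rebuild triglyceride, had 0.667, 334 and 621 FPKM, and Acsl1, which activates fatty acids, had 9.26, 528 and 535 FPKM. Of the other aquaporin genes on the list, Aqp11 was upregulated early (log2 fold change 1.49 ± 0.20) and had 1.25, 3.37 and 3.50 FPKM. Aqp3, which transports glycerol, was the gene downregulated early, at under 1 FPKM, with at most 16.2 counts in any library. It had too few counts after day 0 to pass the filter, so it had to be lower there. Gk, the glycerol kinase gene, had 1.88, 2.62 and 3.33 FPKM, with an early log2 fold change of 0.54 ± 0.14 that stayed under the threshold. Of 7 genes of adipocyte transcription regulators, 0 were upregulated late and 5 early, of which 4 passed the filter at day 0, beside 4.24% of all tested genes late and 9.77% early. Among the 5 were Pparg (11.5, 93.2 and 130 FPKM) and Cebpa (5.89, 87.2 and 123 FPKM). The plot of pathway levels gives the receptors and the downstream genes on a log scale.

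**Figure D4:**
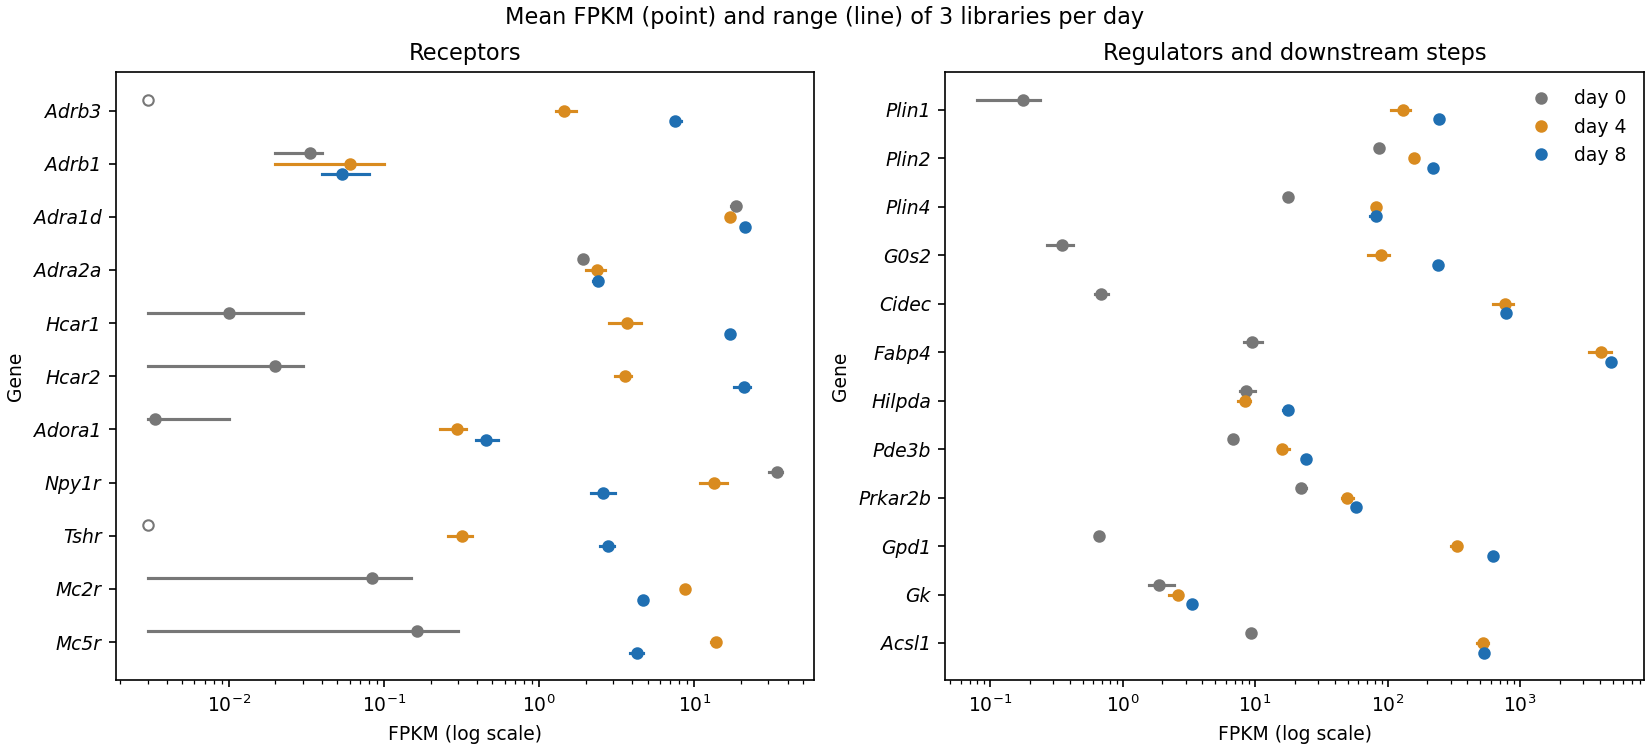
Mean FPKM (points, log scale) and range of 3 libraries (lines) at day 0, day 4 and day 8 for receptor genes on the left and for lipase regulators and downstream genes on the right. Open points at the left edge stand for genes listed at 0 in all day 0 libraries, lines that reach that edge include a library at 0, and Hcar1, Hcar2, Tshr and Adrb3 were highest at day 8, and Mc2r and Mc5r at day 4.

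For each tested gene, the 3 genes with the most similar profile were found by the root mean square difference of centred log2 CPM over the 9 samples, among 11466 genes. Adrb3 and Pnpla3 were nearest to each other (0.287), and the short-chain fatty acid receptor gene Ffar2 was the second nearest to both (0.309 and 0.292). Hcar2 was the next for Adrb3 (0.312), and the transporter gene Slc36a2 for Pnpla3 (0.343). Pnpla2 was nearest to Nr1h3 (0.166), which encodes the liver X receptor alpha, followed by Fam110c and Adamts15. Lipe was nearest to Tmem182 (0.109), Wfdc21 (0.139) and Trem2 (0.152), and Aqp7 to Trem2 (0.187), Lipe (0.188) and 4930511E03Rik (0.199). By edgeR, the early log2 fold changes of Tmem182 (8.68) and Wfdc21 (8.74) were far above that of Lipe (4.72). Their closeness to Lipe thus does not extend to the early step as fitted. Mgll was nearest to the cholesterol exporter gene Abcg1 (0.165), Egln3 (0.207) and Gm12505 (0.279). Abhd5, with its small step, had the closest neighbours, Fam73b (0.0611), Psen2 (0.0714) and Cpt2 (0.0777), and 215 genes lay within 0.3 of it, against 1 for Adrb3. The prior count of 2 draws low day 0 values together, and all samples share the same 3 stages, so the distances are a description.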

How the data were processed

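The authors removed low-quality and adaptor reads, mapped the clean reads with HISAT and Bowtie2 and quantified genes with RSEM, and the submitters' notes also name CASAVA 1.4. Versions of the aligners and the build are not given in the sources used here, and the labels and the methods name different sequencing platforms. As deposited, expected counts are RSEM's estimates per gene before any normalization (29.8% are not whole). For FPKM, the authors scaled these by effective gene length and depth, and the deposited length is the mean transcript length per sample. Columns with the authors' own comparisons were not used.

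Expected counts were rounded, filtered (filterByExpr, about 10 counts in 3 samples), scaled with TMM factors (0.954 to 1.05) and tested in R 4.3.3 with the quasi-likelihood F-test of edgeR 4.0.16, with all 9 samples in 1 model with a coefficient per day. P-values were adjusted over the 13154 genes tested (Benjamini-Hochberg). Genes past an adjusted p of 0.05 and a 2-fold change are called upregulated or downregulated, the thresholds of the study. The common biological coefficient of variation from edgeR was 0.0538. It is 1 value shared by all tested genes for the spread between replicates beyond counting noise. No replicates were alike to within counting noise.

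The text names the 8 genes and, for each list, up to 6 called genes with the largest change, and the most abundant gene. Adra2a, Hilpda, Gk, Pnpla6, Pnpla7, Abhd4 and Abhd12 were added after their values were seen. Members and lists were chosen with earlier results of these data known. Genes were found by symbol (Gyk as Gk). Promoter windows come from RefSeq (GRCm38.p6), and gene overlaps from GENCODE vM21. Alternatives were RLE factors, upper-quartile factors, library size alone, no filter, 10 counts in every sample, DESeq2 1.42.0, edgeR's exact test, limma 3.58.1 on log2(FPKM + 1) and log2(FPKM + 0.1), models of 2 days only, a replicate block and leaving out each library. The steps were tested on simulated data. Some genes of the lists are not reported here. Quantitative PCR, mouse tissue and agonist experiments were not analysed here.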

Additional observations from a re-analysis of the deposited data

How the results depend on the processing

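In 728 repeats of 40 results under 20 settings, 710 kept their direction and their side of the 2-fold threshold, or a count within 1.5 times, and 0 reversed. The 710 include repeats of the late Pnpla2 difference that no longer passed at an adjusted p. These were the fits without day 4 replicate 2 (edgeR adjusted p = 0.112) and without day 8 replicate 1 (edgeR adjusted p = 0.0569). The 728 repeats include early, whole-process and early-against-late results of Adrb3, Pnpla3 and Aqp7. These 3 genes passed the expression filter on the later days only, so such repeats say nothing of stability. Counts of members called early and over the whole process hold the same 3 genes and are partly fixed in this way. With at least 10 counts required in every sample, which removes Adrb3, Pnpla3 and Aqp7, 4 of the members were upregulated early, 1 late and 4 over the whole process, and 831 genes were upregulated early, 310 late and 173 downregulated late. With limma on log2(FPKM + 1), which compresses low values, 708 genes were upregulated and 565 downregulated early, 224 and 136 late, and 753 and 528 over the whole process, against 1285, 1050, 558, 370, 1356 and 1013 with edgeR's quasi-likelihood test. The limma fit also left Aqp7 under the late one (0.80, or 0.96 with log2(FPKM + 0.1)). Library size alone moved the median of all genes over the whole process from -0.018 to -0.129. Leaving out each library in turn gave 3 to 4 members upregulated late, with 1262 to 1347 genes upregulated early and 548 to 589 late.

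Whether the replicate numbers pair the samples could not be decided. Deviations from the day means correlated between -0.0348 and 0.075 for samples with the same number and between -0.1 and 0.0628 for the others. The highest values, 0.075 and 0.0744, were of same-number pairs of day 0 and day 4. The ranges overlap, and deviations of 3 libraries from their own mean depend on each other. With the number as a replicate block, 4 members were upregulated late, and 1287 and 1053 genes were upregulated and downregulated early, 556 and 367 late, and 1360 and 1010 over the whole process. The early and late steps differed by -5.05 for Pnpla2 under the replicate block. Depth limits Adrb1 and the day 0 values of Adrb3, Pnpla3 and Aqp7, which had at most 8.35 expected counts per library there.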
